A study of Mus musculus with 6 samples.

Results

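Microglia were compared with monocytes within wild-type mice and within BRAFV600E mutant mice, and the genes that went the same way in both genotypes were described. The rule names 4 of the 6 libraries of the series: VE microglia, WT microglia, VE monocytes and WT monocytes, where VE is the label of the mutant. Each of these groups was 1 library of sorted cells, so 2 libraries per cell type entered the test, and no value carries an SD within a group. Of the 15964 genes tested, 640 were higher and 1065 were lower in microglia in both genotypes. The labels give the cell type and the genotype of each library and name no treatment. Not given in the sources used here are the driver of the mutant allele, the age and number of the mice and the sort gates. Whether the microglia and monocytes of a genotype shared their mice is not given either. Total RNA was copied into full-length cDNA with SMART-Seq HT and made into Nextera XT libraries. The series also holds intravascular macrophages of both genotypes, which entered alternative fits only. The comparison asks which genes separate the resident macrophage of the brain from the circulating monocyte whichever genotype the cells had.

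As background, microglia descend from embryonic yolk sac progenitors and renew themselves within the brain, while monocytes are made continuously in bone marrow and circulate in blood. Microglia depend on signals of their tissue, among them CSF1 receptor ligands and TGF-beta, and the zinc-finger transcription factor SALL1 is a known regulator of their identity in mice. Classical monocytes of mice carry Ly6C and the chemokine receptor CCR2 and enter inflamed tissue, and patrolling monocytes depend on NR4A1 and crawl along vessel walls. BRAF V600E is a substitution that keeps the kinase BRAF active, which drives the kinases MEK and ERK.

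Total counts were 38852081 in VE microglia, 35418646 in WT microglia, 62110213 in VE monocytes and 25787476 in WT monocytes. A count was found for 20321 genes in VE microglia, 21880 in WT microglia, 20486 in VE monocytes and 19063 in WT monocytes. Levels are given as CPM, which scales each library's counts to a common size with edgeR's TMM factors. They are not divided by gene length and are not compared between genes. The fold change and its adjusted p come from edgeR's quasi-likelihood test with genotype as a block, and are positive where microglia were higher. This fit has 1 residual degree of freedom, so each gene took the spread shared by genes of its level and no spread of its own. The common biological coefficient of variation, a single value over all genes tested, was 0.505. A p-value here reflects the spread among these 4 libraries alone, and that spread may be technical. In bulk RNA, fewer cells of a type and less RNA per cell cannot be told apart. The labelled cell types stood with their markers: all 16 microglia markers reached 10 CPM in both microglia libraries, and all 14 classical monocyte markers reached 10 CPM in both monocyte libraries. The microglia markers summed to 75819.8 (VE) and 46089 (WT) CPM in microglia, against 1674 (VE) and 2019 (WT) CPM in monocytes, and the classical monocyte markers to 2111 (VE) and 334 (WT) CPM in microglia, against 44677 (VE) and 44543 (WT) CPM in monocytes. Braf itself had 6.33 (VE) and 45 (WT) CPM in microglia, against 11.8 (VE) and 24.3 (WT) CPM in monocytes. Counts per gene do not tell the alleles apart and check no genotype label.

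Of the genes tested, 2458 were higher in microglia (15.4%) and 2749 were lower (17.2%) at an adjusted p of 0.05. These 15.4% and 17.2% are the shares to set beside the counts of each gene list below. The same-way rule also asked for a log2 ratio of microglia to monocytes of at least 2, that is 4-fold, in each genotype, and for 10 CPM in each library of the cell type that was higher. It held for 640 genes higher in microglia (4.01% of those tested) and for 1065 lower in microglia (6.67%). Every gene past the size and level parts of the rule also passed the test. In the VE pair alone, 1358 genes were higher and 1662 lower by size and level, and in the WT pair alone 1100 were higher and 1387 lower. The genes higher in both pairs made up 47.1% of the VE list and 58.2% of the WT list, and those lower in both made up 64.1% of the VE list and 76.8% of the WT list. A further 5 genes went opposite ways, all of them lower in VE and higher in WT microglia than in the monocytes of their genotype. Taking the smaller of a gene's 2 ratios, computed with a prior count of 2, 106 genes were at least 64-fold higher and 171 at least 64-fold lower in microglia, and 4 were at least 1024-fold higher and 20 at least 1024-fold lower. The median log2 fold change of all genes tested was 0.08.

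These counts depend on the spread and the scaling used. In the fit on all 6 libraries, which has 2 residual degrees of freedom, 300 genes were called higher and 549 lower in microglia, and 283 of the 640 and 496 of the 1065 same-way genes were among the genes called there. A gene described as higher or lower that was not called in that fit is given with its adjusted p there. Under TMM scaling 47.2% of the called genes were higher in microglia. Scaling by library size alone called 3778 genes higher and 2167 lower, so that 63.5% were higher, and moved the median log2 fold change of all genes to 0.59. A limma fit on log2(TPM + 1) called 2860 higher and 1402 lower, so that 67.1% were higher, with a median of 0.54. Leaving a library out of the fit on all 6 also moved the median of all genes. It was 0.29 without VE microglia, -0.48 without WT microglia, -0.03 without VE monocytes and 0.41 without WT monocytes. List medians without a library are to be read beside these.

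**Figure D1:**
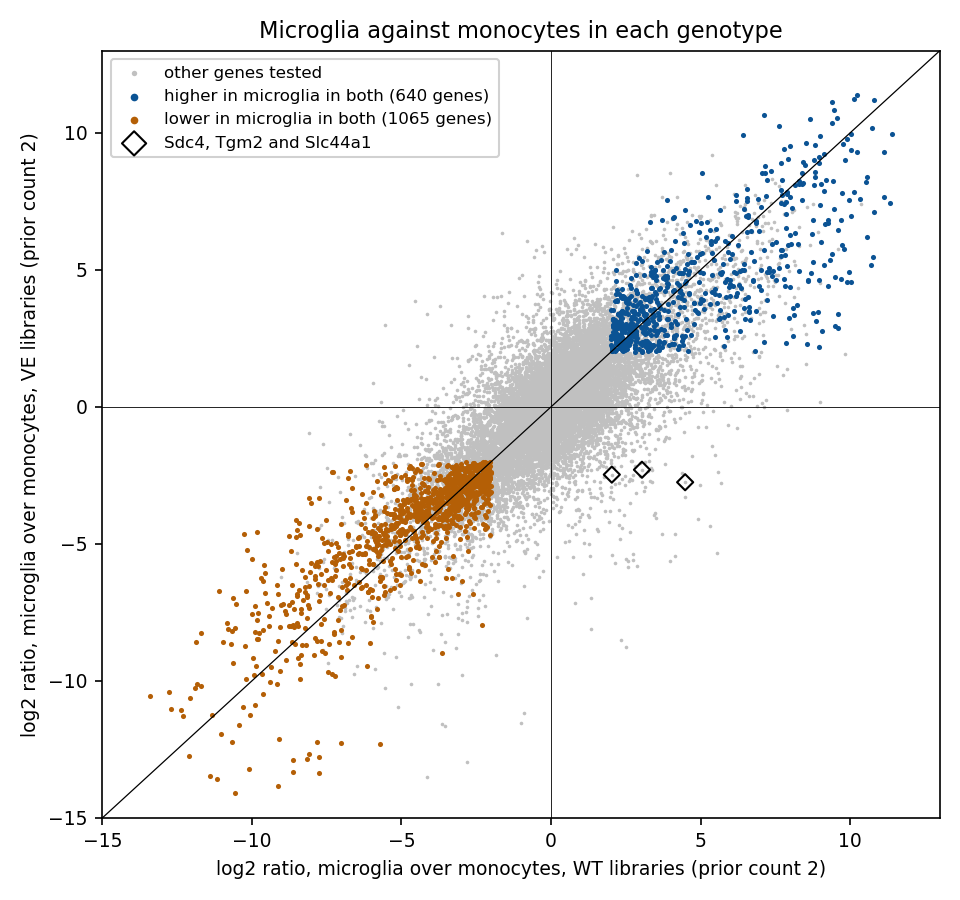
Log2 ratio of microglia to monocytes for each gene tested, in the WT libraries (x axis) and the VE libraries (y axis), with a prior count of 2; each point is 1 gene and the diagonal line marks equal ratios. The 640 genes higher in microglia in both genotypes lie in the upper right and the 1065 lower in both in the lower left, and the open diamonds of Sdc4, Tgm2 and Slc44a1 lie in the lower right.

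The genes with the largest differences upward were led by Slc2a5, which encodes the fructose transporter GLUT5, and by the secreted matrix glycoprotein gene Sparc. Slc2a5 (chr4:150119283-150144169, plus strand in GENCODE M21, build GRCm38) had 1279.7 (VE) and 699 (WT) CPM in microglia, against 0.491 (VE) and 0.343 (WT) CPM in monocytes. That is 2606-fold (95% interval 1704 to 4209.6) in the VE pair and 2037-fold (95% interval 1073 to 4455) in the WT pair, with a log2 fold change 11.17 ± 1.03 (SE), adjusted p = 1.81e-24. The intervals of folds cover counting error only. Sparc had 6489 (VE) and 2889.5 (WT) CPM in microglia, against 2.39 (VE) and 2.36 (WT) CPM in monocytes (10.84 ± 1.03, adjusted p = 3.98e-23). Fcrls, an Fc receptor-like gene of mouse microglia, had 3429 (VE) and 1905 (WT) CPM in microglia, against 2.88 (VE) and 1.07 (WT) CPM in monocytes (10.50 ± 1.01, adjusted p = 1.38e-22). These 3 genes were picked by the size of their ratios, and in each both microglia libraries lay far above both monocyte libraries. Serpine2, which encodes a secreted inhibitor of serine proteases, had 1729 (VE) and 689 (WT) CPM in microglia, against 1.68 (VE) and 0.61 (WT) CPM in monocytes (10.06 ± 0.99, adjusted p = 6.02e-22). Olfml3, which encodes a secreted olfactomedin-like protein, had 3002 (VE) and 1186 (WT) CPM in microglia, against 1.29 (VE) and 1.72 (WT) CPM in monocytes (10.31 ± 1.01, adjusted p = 5.42e-22).

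Sall1 was among the leading genes with almost no reads in monocytes. It had 6971 (VE) and 17870 (WT) counts in microglia, against 6 (VE) and 2 (WT) counts in monocytes (chr8:89027235-89044162, minus strand), or 188 (VE) and 339 (WT) CPM in microglia, against 0.14 (VE) and 0.0762 (WT) CPM in monocytes. The ratio was 1337-fold (95% interval 614 to 3645) in the VE pair and 4453-fold (95% interval 1233 to 36776) in the WT pair, and both intervals are wide because the monocyte counts were so few. Its fitted log2 fold change was 11.06 ± 1.02 (SE), adjusted p = 2.02e-24. Slc1a3, the glutamate and aspartate transporter best known from astrocytes, had 166 (VE) and 111 (WT) CPM in microglia, against 0.164 (VE) and 0.0762 (WT) CPM in monocytes. Of the 9 astrocyte markers listed, 2 reached 10 CPM in VE microglia and 1 in WT microglia. The astrocyte genes Gfap and Aqp4, chosen after their values were seen, had at most 0.323 CPM in either microglia library. Upk1b, a tetraspanin of the uroplakin family, had 289 (VE) and 186 (WT) CPM in microglia, against 0.0702 (VE) and 0.114 (WT) CPM in monocytes, with 3 counts in each monocyte library. Ecscr, a cell surface regulator first described in endothelium, had 514 (VE) and 198 (WT) CPM in microglia, against 0.234 (VE) and 0.229 (WT) CPM in monocytes. The other leading genes were Csmd3, Thrsp, Tmem100, Tspan7, Atp8a2 and Lrrc3, each with 1 to 8 counts in a monocyte library. All 15 leading genes upward were also called in the fit on all 6 libraries, which holds the same 4 libraries and is no independent check.

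Downward, the leading gene was Ly6c2, one of the genes that encode the Ly6C antigen of classical monocytes. Ly6c2 (chr15:75108158-75111970, minus strand) had 0.188 (VE) and 0.114 (WT) CPM in microglia, against 1653 (VE) and 727 (WT) CPM in monocytes, with a log2 fold change -12.84 ± 1.10 (SE), adjusted p = 2.73e-27. Chil3, a chitinase-like secreted protein of mouse myeloid cells, had 0.188 (VE) and 0.209 (WT) CPM in microglia, against 2689 (VE) and 704 (WT) CPM in monocytes (-12.70 ± 1.10, adjusted p = 6.07e-27). Ifitm6, of a family of interferon-induced membrane proteins, had 0.969 (VE) and 0.114 (WT) CPM in microglia, against 2548 (VE) and 836 (WT) CPM in monocytes (-11.99 ± 1.07, adjusted p = 4.76e-26). In each of these 3 genes monocytes exceeded microglia by more than 1024-fold in both pairs. Plac8, a small cysteine-rich protein, had 1.53 (VE) and 0.684 (WT) CPM in microglia, against 3819 (VE) and 1893 (WT) CPM in monocytes. Crip1, a LIM-domain protein, had 16.4 (VE) and 5.64 (WT) CPM in microglia, against 25733 (VE) and 24667 (WT) CPM in monocytes. The matrix gene Fn1, fibronectin, had 2.1 (VE) and 0.513 (WT) CPM in microglia, against 2614 (VE) and 2176 (WT) CPM in monocytes.

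Several leading genes downward are also known from neutrophils. Mmp8, the neutrophil collagenase, had 0 (VE) and 0.019 (WT) CPM in microglia, against 243 (VE) and 112 (WT) CPM in monocytes; against a floor of 3 counts per library it was at least 3006-fold lower in VE microglia. Cd177, a neutrophil surface protein, had 0.108 (VE) and 0 (WT) CPM in microglia, against 213 (VE) and 351 (WT) CPM in monocytes, at least 6153-fold lower in WT microglia. Hp, haptoglobin, had 0 (VE) and 0.133 (WT) CPM in microglia, against 624 (VE) and 422 (WT) CPM in monocytes, at least 7728-fold lower in VE microglia. Slpi, an inhibitor of leukocyte proteases, had 0.135 (VE) and 0.114 (WT) CPM in microglia, against 3273 (VE) and 248 (WT) CPM in monocytes. The summed neutrophil markers were at 251 (VE) and 424 (WT) CPM in microglia, against 50389 (VE) and 1781 (WT) CPM in monocytes, and their part in these differences was not tested. Gda, guanine deaminase, Ccdc180, S100a6 and S100a4 were also among the leading genes. Each of the 15 leading genes downward was called in the fit on all 6 libraries, which is no independent check either.

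**Figure D2:**
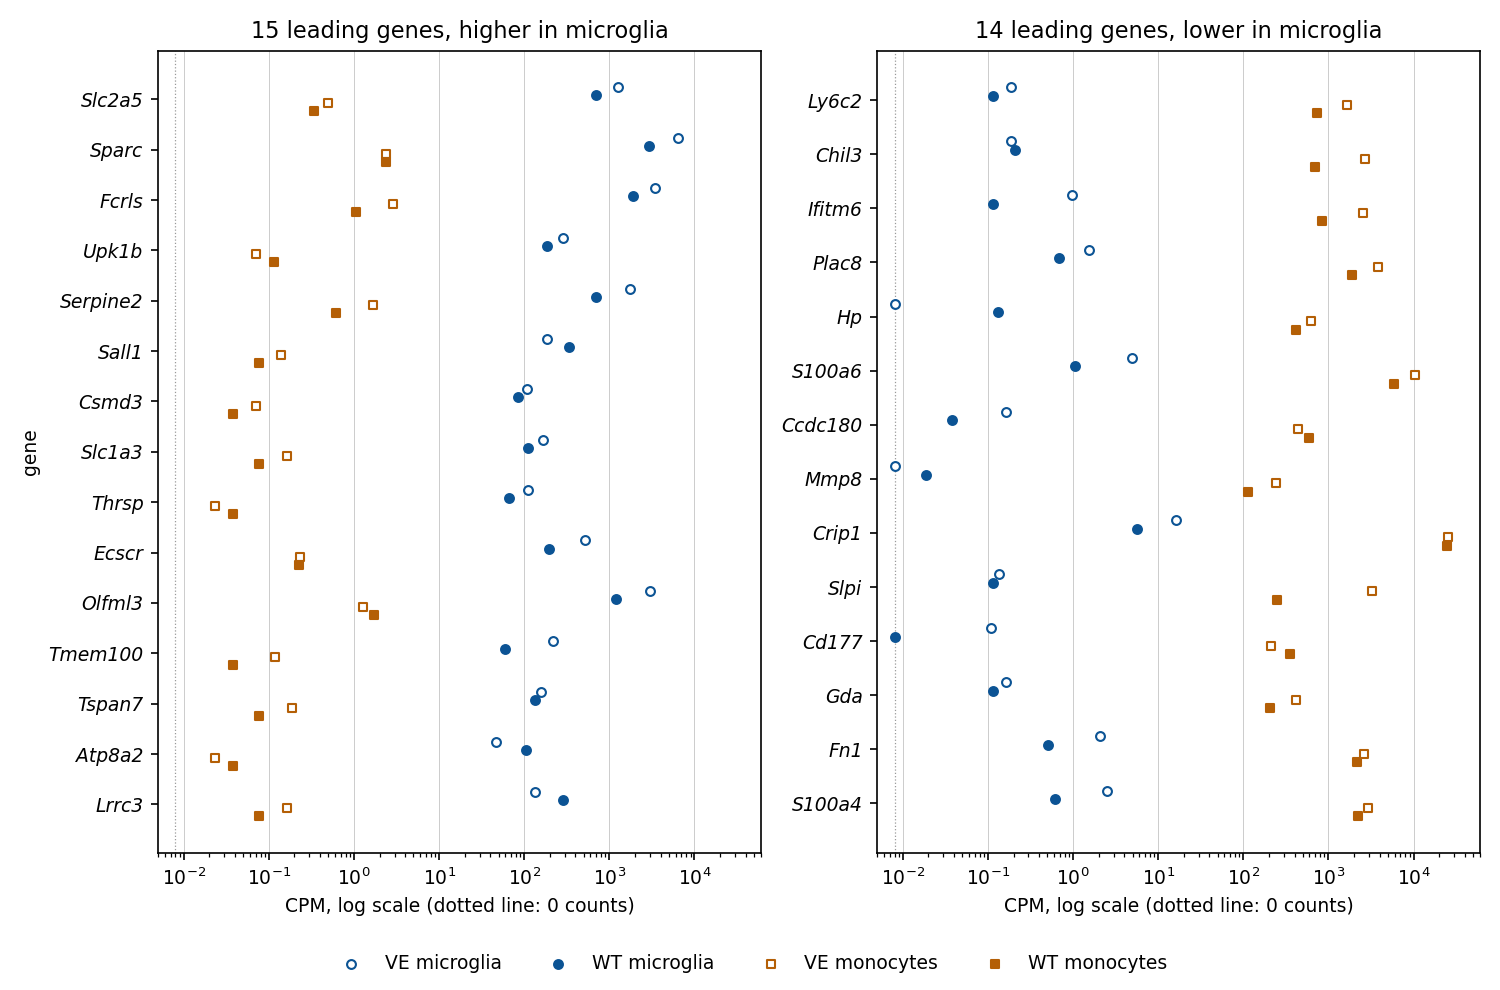
CPM in each of the 4 libraries (x axis, log scale) for the 15 leading genes higher in microglia (left) and 14 of the 15 lower in microglia (right), named on the y axes; circles are microglia, squares are monocytes, open symbols are VE and filled symbols WT, and a point on the dotted line has 0 counts. The genes were picked by the size of their ratios, so no monocyte point overlaps a microglia point of the same gene. Slc2a5 leads the left panel and Ly6c2 the right one.

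Promoters of 8 leading genes are printed, 5 with a match of letters known for macrophage factors and 3 without one, picked after the matches were seen. They are RefSeq windows of build GRCm38.p6, 250 bases before to 50 bases after a gene's start, written 5′ to 3′ on the gene's own strand with the matched motif in capitals. The motifs were searched on both strands by their letters: GAGGAAGT for PU.1, TTGCNNAA for C/EBP, GAAANNGAA for IRF, GGGNGTGG for KLF factors and TGANTCA for AP-1. A match of any of these letters stood in 3 of the 10 leading genes higher in microglia that had a window, and in 10 of 12 lower. Shares over all genes tested were counted for each motif alone and follow the sequences. The counts of leading genes thus have no background share, and no difference between the directions is read from them. For Sall1 (chr8:89044113-89044412, minus strand) and Olfml3 (chr3:103737952-103738251, minus strand), both higher in microglia, the capitals mark the KLF letters or their reverse complement. For Ly6c2 (chr15:75111922-75112221, minus strand), lower in microglia, they mark 2 matches of the PU.1 letters, for Chil3 (chr3:106167515-106167814, minus strand) an IRF match, and for Mmp8 (chr9:7558179-7558478, plus strand) a PU.1 match followed by a C/EBP match. Sall1 had 3 windows, 2 of them with a match, and Ly6c2 had 2, both with matches; 1 of each is printed. The windows of Slc2a5 (chr4:150119094-150119393, plus strand) and Sparc (chr11:55420031-55420330, minus strand), which lead the genes higher in microglia, and of Ifitm6 (chr7:141016843-141017142, minus strand), lower in microglia, hold no match.
Slc2a5: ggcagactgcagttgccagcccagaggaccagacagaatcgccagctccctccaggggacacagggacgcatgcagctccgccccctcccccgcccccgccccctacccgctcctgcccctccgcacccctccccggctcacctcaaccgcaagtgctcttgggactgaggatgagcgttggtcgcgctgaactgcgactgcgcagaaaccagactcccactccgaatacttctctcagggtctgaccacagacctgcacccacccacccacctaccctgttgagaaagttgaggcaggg
Sparc: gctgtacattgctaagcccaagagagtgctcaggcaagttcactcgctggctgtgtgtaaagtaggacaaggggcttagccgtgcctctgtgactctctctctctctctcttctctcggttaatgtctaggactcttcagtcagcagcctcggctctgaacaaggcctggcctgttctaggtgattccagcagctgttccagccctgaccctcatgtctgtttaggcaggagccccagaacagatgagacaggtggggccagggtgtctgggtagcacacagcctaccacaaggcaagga
Sall1: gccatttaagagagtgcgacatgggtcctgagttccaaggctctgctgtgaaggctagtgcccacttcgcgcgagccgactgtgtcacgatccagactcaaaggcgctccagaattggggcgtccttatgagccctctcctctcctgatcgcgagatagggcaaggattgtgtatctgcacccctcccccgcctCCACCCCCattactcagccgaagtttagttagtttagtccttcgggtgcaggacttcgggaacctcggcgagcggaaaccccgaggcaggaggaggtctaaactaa
Olfml3: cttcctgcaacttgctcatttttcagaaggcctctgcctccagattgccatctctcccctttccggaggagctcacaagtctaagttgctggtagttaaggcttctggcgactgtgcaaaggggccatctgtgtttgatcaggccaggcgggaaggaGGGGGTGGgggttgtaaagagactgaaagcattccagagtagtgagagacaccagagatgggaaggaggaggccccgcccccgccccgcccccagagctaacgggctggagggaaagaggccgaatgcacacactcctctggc
Ly6c2: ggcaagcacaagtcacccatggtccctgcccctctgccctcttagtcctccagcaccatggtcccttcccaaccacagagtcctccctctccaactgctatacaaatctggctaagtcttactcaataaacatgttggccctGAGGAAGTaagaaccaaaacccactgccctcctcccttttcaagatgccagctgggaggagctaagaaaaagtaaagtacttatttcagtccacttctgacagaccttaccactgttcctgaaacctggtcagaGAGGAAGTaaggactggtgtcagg
Chil3: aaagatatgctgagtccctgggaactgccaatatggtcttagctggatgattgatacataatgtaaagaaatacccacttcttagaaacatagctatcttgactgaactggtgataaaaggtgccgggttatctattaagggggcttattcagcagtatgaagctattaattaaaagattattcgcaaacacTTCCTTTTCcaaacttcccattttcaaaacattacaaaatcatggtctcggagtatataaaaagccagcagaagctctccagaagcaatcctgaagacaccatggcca
Ifitm6: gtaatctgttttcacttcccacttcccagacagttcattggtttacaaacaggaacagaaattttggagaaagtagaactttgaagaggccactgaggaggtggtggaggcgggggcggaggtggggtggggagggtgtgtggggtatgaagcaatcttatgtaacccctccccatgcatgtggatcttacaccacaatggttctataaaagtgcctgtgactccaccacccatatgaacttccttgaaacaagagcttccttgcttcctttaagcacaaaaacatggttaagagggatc
Mmp8: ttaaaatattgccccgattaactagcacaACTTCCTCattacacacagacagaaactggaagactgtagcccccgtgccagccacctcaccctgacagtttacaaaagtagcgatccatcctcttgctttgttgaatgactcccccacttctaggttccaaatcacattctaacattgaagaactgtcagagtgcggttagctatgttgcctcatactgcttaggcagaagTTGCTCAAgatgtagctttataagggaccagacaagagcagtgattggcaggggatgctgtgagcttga
RefSeq windows were matched by symbol for 491 of the 640 genes higher and 685 of the 1065 genes lower in microglia, and for 10361 of the 15964 genes tested. The PU.1 letters were in 6.52% of the matched genes higher, in 5.84% of those lower and in 4.17% of all matched genes tested. The C/EBP letters were in 12.2%, 12.6% and 10.5% of the same sets, the IRF letters in 9.57%, 13.7% and 9.03%, and the KLF letters in 27.3%, 27.2% and 25.9%. The AP-1 letters were in 8.35% of the genes higher, 8.32% of those lower and 6.29% of all tested. Over all 27025 genes of the table, tested or not, the shares of genes were 3.69% for PU.1, 12.2% for C/EBP, 9.76% for IRF, 19.7% for KLF and 8.97% for AP-1. Of its 32851 single windows, 3.2% held the PU.1, 10.8% the C/EBP, 8.56% the IRF, 17.6% the KLF and 7.81% the AP-1 letters. A match describes these letters in these windows and is no binding site.

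All 16 microglia surface and secreted markers were higher in microglia, with a median log2 fold change of 8.88 against 0.08 over all genes tested, and 15 of them were higher in both genotypes by the same-way rule. The purinergic receptor genes are described further on. Tmem119, a membrane protein used to mark microglia, had 5359.7 (VE) and 2913 (WT) CPM in microglia, against 17.7 (VE) and 4.15 (WT) CPM in monocytes (8.84 ± 0.96, adjusted p = 2.66e-18). Siglech, a sialic acid-binding lectin, had 3089.6 (VE) and 1314 (WT) CPM in microglia, against 3.23 (VE) and 2.52 (WT) CPM in monocytes (9.47 ± 0.97, adjusted p = 3.81e-20). Gpr34, a receptor for lysophosphatidylserine, had 4904 (VE) and 1979 (WT) CPM in microglia, against 8.75 (VE) and 3.89 (WT) CPM in monocytes (9.06 ± 0.96, adjusted p = 5.38e-19). Gpr84, a receptor for medium-chain fatty acids, had 808 (VE) and 116 (WT) CPM in microglia, against 9.38 (VE) and 0.876 (WT) CPM in monocytes (6.72 ± 0.84, adjusted p = 9.80e-14). Csf1r, the receptor for CSF1 and IL-34 on which microglia depend, was the member outside the same-way rule: it had 2792 (VE) and 8886 (WT) CPM in microglia, against 752 (VE) and 861 (WT) CPM in monocytes, and its log2 ratio was 1.89 in the VE pair and 3.37 in the WT pair. Both microglia libraries still exceeded both monocyte libraries for Csf1r (2.63 ± 0.73, adjusted p = 0.002). Cx3cr1, the fractalkine receptor that patrolling monocytes also carry, had 3473 (VE) and 2822 (WT) CPM in microglia, against 243 (VE) and 499 (WT) CPM in monocytes (3.17 ± 0.75, adjusted p = 1.83e-04). Selplg, the P-selectin ligand, had 9391 (VE) and 5245 (WT) CPM in microglia, against 295 (VE) and 467 (WT) CPM in monocytes (4.24 ± 0.78, adjusted p = 9.58e-07). In the fit on all 6 libraries 13 of the 16 markers were called; Csf1r (adjusted p = 0.33), Cx3cr1 (adjusted p = 0.2) and Selplg (adjusted p = 0.12) were not.

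Among 20 transcriptional and signalling regulators of microglia and macrophage identity, 7 were higher and 5 lower in microglia, or 8 and 3 under TPM, and 4 were higher and 3 lower in both genotypes. Beside Sall1, its relative Sall3 had 40.2 (VE) and 76.9 (WT) CPM in microglia, against 0.0702 (VE) and 0 (WT) CPM in monocytes, at 0 counts in WT monocytes and 3 counts in VE monocytes. Bhlhe41, a basic helix-loop-helix repressor, had 35.9 (VE) and 157 (WT) CPM in microglia, against 3.09 (VE) and 1.3 (WT) CPM in monocytes (5.19 ± 0.79, adjusted p = 1.13e-09). The Krüppel-like factor genes Klf2 and Klf4 were lower: Klf2 had 51.1 (VE) and 43.6 (WT) CPM in microglia, against 659 (VE) and 654 (WT) CPM in monocytes (-3.80 ± 0.74, adjusted p = 3.24e-06) and Klf4, a regulator of monocyte differentiation, had 26 (VE) and 51.8 (WT) CPM in microglia, against 151 (VE) and 301 (WT) CPM in monocytes (-2.54 ± 0.68, adjusted p = 0.0012). Nr4a1, the orphan nuclear receptor needed by patrolling monocytes in mice, had 35.4 (VE) and 8.72 (WT) CPM in microglia, against 203 (VE) and 324 (WT) CPM in monocytes (-3.86 ± 0.77, adjusted p = 5.54e-06). Spi1, chosen after its values were seen, encodes PU.1, the general macrophage factor; it had 574 (VE) and 213 (WT) CPM in microglia, against 321 (VE) and 339.5 (WT) CPM in monocytes and did not pass the test (0.08 ± 0.68, adjusted p = 0.95). Klf4 was not called in the fit on all 6 libraries (adjusted p = 0.065). The median log2 fold change of the list was 0.60.

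Of 16 members tested of the 19 TGF-beta receptors, SMADs and activators listed, 5 were higher and 4 lower in microglia, with a median log2 fold change of 0.61. Under scaling by library size 7 were higher and 3 lower, under TPM 7 and 1, and with all 6 libraries 1 and 0. Tgfbr1, the type I receptor, had 464 (VE) and 1597 (WT) CPM in microglia, against 72.3 (VE) and 172 (WT) CPM in monocytes (2.95 ± 0.72, adjusted p = 3.02e-04). Itgb5, an integrin subunit that pairs with the alpha v subunit and can activate latent TGF-beta, had 385 (VE) and 1736 (WT) CPM in microglia, against 65.5 (VE) and 38.4 (WT) CPM in monocytes (4.02 ± 0.80, adjusted p = 6.36e-06). Tgfb1, the ligand, was lower in microglia, with 17.1 (VE) and 37.9 (WT) CPM in microglia, against 127 (VE) and 198 (WT) CPM in monocytes (-2.64 ± 0.67, adjusted p = 6.40e-04). All 3 genes were picked through the same-way rule, and their microglia and monocyte libraries did not overlap. Of these, Tgfbr1 (adjusted p = 0.19) and Tgfb1 (adjusted p = 0.054) were not called in the fit on all 6 libraries.

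Purinergic receptors sense nucleotides and adenosine, and several guide microglial processes in mice. Of 13 members tested of 14 listed, 6 were higher and 4 lower in microglia, or 6 and 2 under TPM, 5 and 1 of them in both genotypes. Their median log2 fold change of 0.82 was -0.78 without WT microglia in the fit on all 6 libraries, where that of all genes was -0.48. P2ry12, the ADP receptor that guides process extension, had 9101 (VE) and 5017 (WT) CPM in microglia, against 19.1 (VE) and 9.98 (WT) CPM in monocytes (8.93 ± 0.95, adjusted p = 1.04e-18). P2ry13, a related ADP receptor, had 3019 (VE) and 1574 (WT) CPM in microglia, against 5.82 (VE) and 3.47 (WT) CPM in monocytes (8.92 ± 0.95, adjusted p = 8.01e-19), and the ratios of both genes differed little between the pairs: 8.89 in the VE pair and 8.97 in the WT pair for P2ry12, and 9.01 in the VE pair and 8.81 in the WT pair for P2ry13. Entpd1, the ectonucleotidase CD39, had 581 (VE) and 542 (WT) CPM in microglia, against 36.4 (VE) and 28.9 (WT) CPM in monocytes (4.11 ± 0.74, adjusted p = 5.24e-07). Of the adenosine receptors, Adora3 had 37.9 (VE) and 39.6 (WT) CPM in microglia, against 1.24 (VE) and 0.495 (WT) CPM in monocytes (5.57 ± 0.76, adjusted p = 1.12e-11). Adora2b had 0.0269 (VE) and 0.114 (WT) CPM in microglia, against 21.8 (VE) and 21.2 (WT) CPM in monocytes (-8.20 ± 0.98, adjusted p = 3.38e-15). P2rx7, the ATP-gated channel, chosen after its values were seen, had 158 (VE) and 176 (WT) CPM in microglia, against 22.8 (VE) and 32.6 (WT) CPM in monocytes (2.61 ± 0.67, adjusted p = 7.23e-04) but was not called with all 6 libraries (adjusted p = 0.075).

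**Figure D3:**
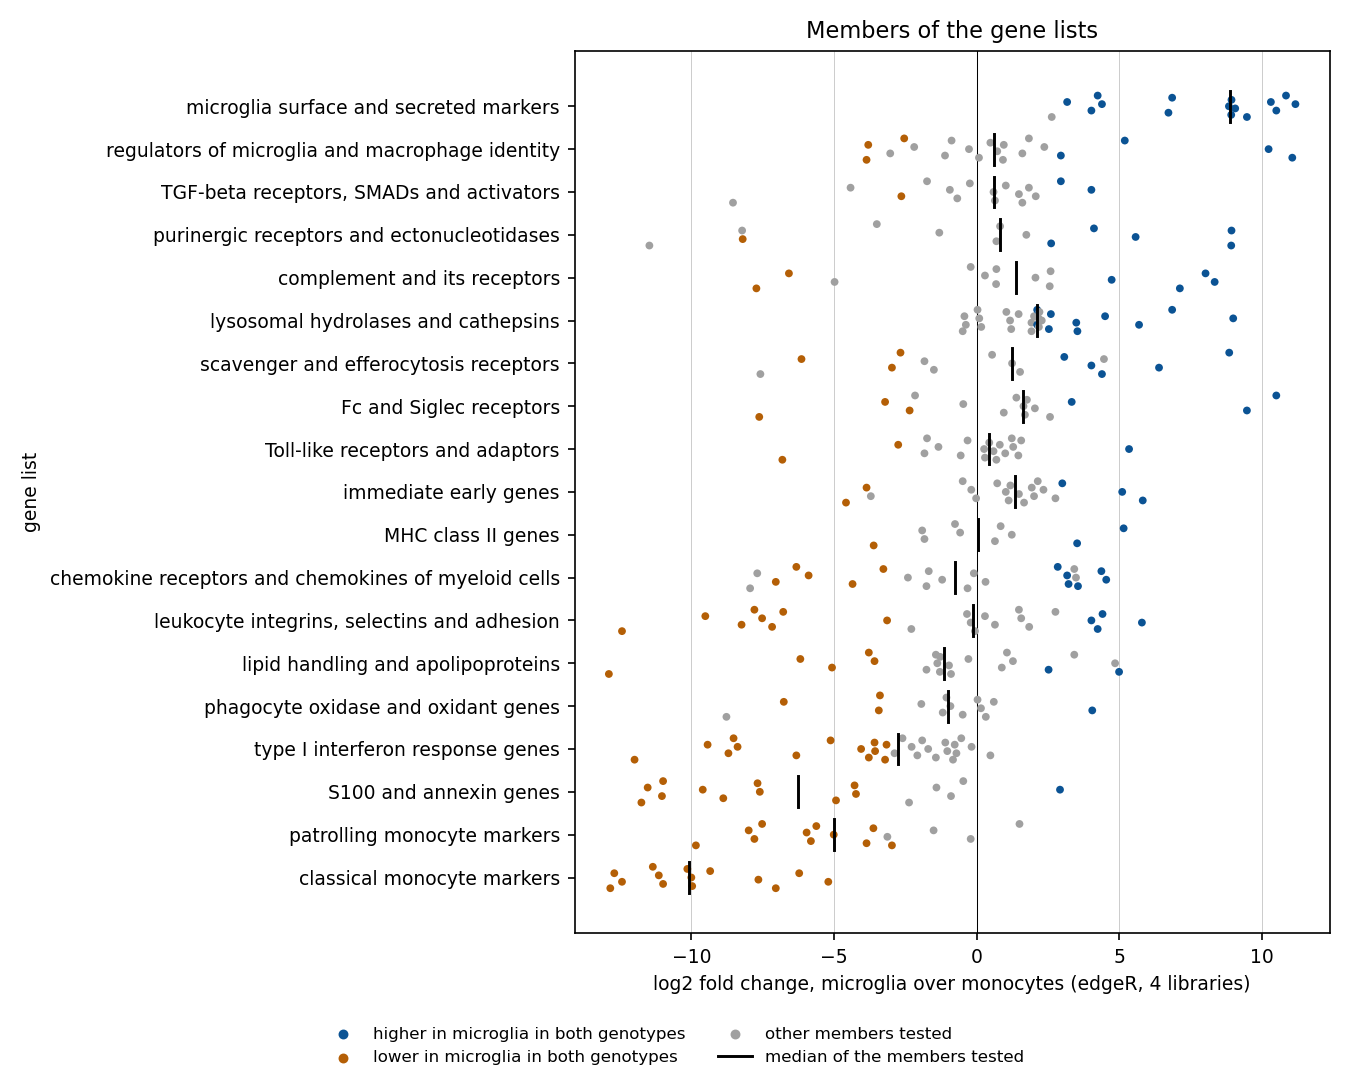
Log2 fold change of microglia over monocytes (x axis, edgeR on 4 libraries) for the members tested of 19 gene lists (y axis); each point is 1 gene, coloured by whether it was higher or lower in both genotypes, and the black line is the list's median. The median is 8.88 for the microglia markers at the top and -10.07 for the classical monocyte markers at the bottom; fitted values of members with 0 counts in a cell type depend on the prior count and are no bound.

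Of 14 complement genes tested, 7 were higher and 3 lower in microglia, with a median log2 fold change of 1.38. With all 6 libraries 3 were called higher and 2 lower; the median was 2.88 without VE microglia and -0.49 without WT microglia, where that of all genes was -0.48. The subunits of C1q, which starts the classical pathway, were higher in microglia in both genotypes. C1qa had 4366 (VE) and 1455 (WT) CPM in microglia, against 58.9 (VE) and 0.915 (WT) CPM in monocytes (8.34 ± 0.99, adjusted p = 2.01e-15). C1qc had 13531 (VE) and 3969 (WT) CPM in microglia, against 155 (VE) and 5.07 (WT) CPM in monocytes (8.02 ± 0.95, adjusted p = 2.28e-15). C1qb had 18291 (VE) and 5403 (WT) CPM in microglia, against 680.0 (VE) and 7.35 (WT) CPM in monocytes (7.12 ± 0.97, adjusted p = 6.28e-12), and was not called with all 6 libraries (adjusted p = 0.09). VE monocytes held more of each subunit than WT monocytes, so the log2 ratio of C1qa was 6.21 in the VE pair and 10.56 in the WT pair. C3ar1, the receptor of the C3a fragment, had 744 (VE) and 297 (WT) CPM in microglia, against 143 (VE) and 2.06 (WT) CPM in monocytes (4.73 ± 0.89, adjusted p = 1.36e-06). C3, the central component, was lower in microglia, with 1.59 (VE) and 0.76 (WT) CPM in microglia, against 186 (VE) and 294 (WT) CPM in monocytes (-7.72 ± 0.87, adjusted p = 7.22e-17), as was Cfp, properdin of the alternative pathway, with 5.19 (VE) and 1.22 (WT) CPM in microglia, against 479 (VE) and 121 (WT) CPM in monocytes (-6.58 ± 0.83, adjusted p = 9.35e-14).

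Lysosomal genes were shifted upward in microglia. The list holds 27 genes of hydrolases, cathepsins, membrane proteins and cystatin C, all of them tested. Of these, 17 were higher in microglia and 10 did not pass the test, with a median log2 fold change of 2.12. By the same-way rule 10 were higher in both genotypes. Ctsd, cathepsin D, had 12267 (VE) and 11102 (WT) CPM in microglia, against 499.9 (VE) and 102 (WT) CPM in monocytes (5.69 ± 0.85, adjusted p = 5.04e-10). Ctsf, cathepsin F, had 713 (VE) and 303 (WT) CPM in microglia, against 0.538 (VE) and 1.49 (WT) CPM in monocytes (8.99 ± 0.95, adjusted p = 4.39e-19). Lgmn, the protease legumain, had 3402 (VE) and 1941 (WT) CPM in microglia, against 225 (VE) and 57.4 (WT) CPM in monocytes (4.50 ± 0.79, adjusted p = 1.84e-07). These 3 genes were picked through the same-way rule, and their microglia and monocyte libraries did not overlap. The sum over the list was 133565 (VE) and 67713 (WT) CPM in microglia, against 17297 (VE) and 14220.0 (WT) CPM in monocytes. Part of it came from the cystatin C gene Cst3, chosen after its values were seen. Cst3 had the most counts of any gene in both microglia libraries, at 4.22% of the counts in VE and 3.3% in WT microglia. Psap and Lipa, chosen after their values were seen, did not follow: Psap, which encodes saposin precursors, had 2178 (VE) and 1338 (WT) CPM in microglia, against 1602 (VE) and 3314 (WT) CPM in monocytes (-0.43 ± 0.71, adjusted p = 0.69). Lipa, the acid lipase, had 76.8 (VE) and 94.2 (WT) CPM in microglia, against 98 (VE) and 145 (WT) CPM in monocytes (-0.49 ± 0.64, adjusted p = 0.61). The fit on all 6 libraries called 3 members, Ctsf and Lgmn among them; Ctsd had an adjusted p of 0.084 there.

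**Figure D4:**
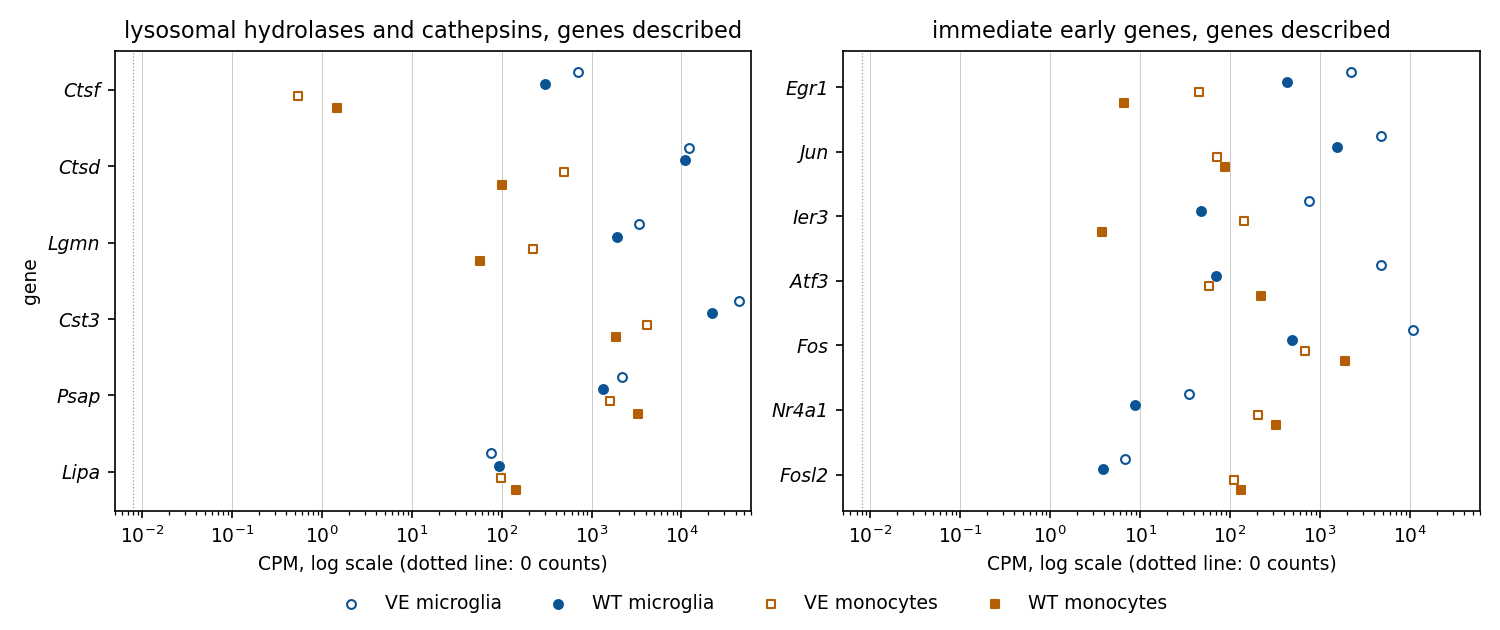
CPM in each of the 4 libraries (x axis, log scale) for the lysosomal genes (left) and the immediate early genes (right) described in the text, named on the y axes in order of their fitted fold change; circles are microglia, squares are monocytes, open symbols are VE and filled symbols WT, and a point on the dotted line has 0 counts. Ctsf, Ctsd and Lgmn at the upper left, picked through the same-way rule, have both microglia libraries above both monocyte libraries. On the right, Fos and Atf3 have their highest level in VE microglia.

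Of 15 members tested of 20 scavenger and efferocytosis genes listed, 6 were higher and 5 lower in microglia, or 8 and 4 under scaling by library size, 5 and 3 of them in both genotypes, with a median log2 fold change of 1.24. Mertk, a receptor tyrosine kinase for dying cells, had 216 (VE) and 543 (WT) CPM in microglia, against 20.7 (VE) and 0.648 (WT) CPM in monocytes (6.39 ± 0.97, adjusted p = 1.23e-09). Its bridging ligand Gas6 had 219.5 (VE) and 165 (WT) CPM in microglia, against 1.1 (VE) and 0.0762 (WT) CPM in monocytes (8.85 ± 0.92, adjusted p = 1.09e-19), and the other bridging ligand, Pros1, had 349 (VE) and 589 (WT) CPM in microglia, against 56.8 (VE) and 51.1 (WT) CPM in monocytes (3.07 ± 0.71, adjusted p = 1.43e-04). Trem2, a lipid-sensing receptor, had 2138 (VE) and 952 (WT) CPM in microglia, against 155 (VE) and 29.8 (WT) CPM in monocytes (4.39 ± 0.78, adjusted p = 2.62e-07), while its adaptor Tyrobp was lower in microglia, with 2619 (VE) and 1141 (WT) CPM in microglia, against 16424 (VE) and 7355 (WT) CPM in monocytes (-2.67 ± 0.72, adjusted p = 0.0013). Msr1, the class A scavenger receptor, had 15.7 (VE) and 2.36 (WT) CPM in microglia, against 933 (VE) and 199 (WT) CPM in monocytes (-6.14 ± 0.82, adjusted p = 3.15e-12). Cd36, a class B scavenger receptor, had 7.43 (VE) and 1.88 (WT) CPM in microglia, against 78.2 (VE) and 10.9 (WT) CPM in monocytes (-2.97 ± 0.66, adjusted p = 7.14e-05). Pros1 (adjusted p = 0.069) and Tyrobp (adjusted p = 0.38) were not called with all 6 libraries.

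In the lipid handling list, 4 of 20 members were higher and 5 lower in microglia, or 4 and 9 with length and GC correction. Their median log2 fold change of -1.13 was 0.06 without VE microglia in the fit on all 6 libraries, where that of all genes was 0.29. Lpcat2, a lysophospholipid acyltransferase, had 1836 (VE) and 1179 (WT) CPM in microglia, against 61.8 (VE) and 34.8 (WT) CPM in monocytes (4.99 ± 0.79, adjusted p = 6.40e-09). Abca9, an ABC transporter, had 139.5 (VE) and 351 (WT) CPM in microglia, against 26.7 (VE) and 56.1 (WT) CPM in monocytes (2.52 ± 0.68, adjusted p = 0.0014). The fatty acid-binding protein gene Fabp4 had 0 (VE) and 0 (WT) CPM in microglia, against 33.7 (VE) and 17 (WT) CPM in monocytes, so that 0 counts stood in both microglia libraries. Fabp5 had 7.94 (VE) and 0.646 (WT) CPM in microglia, against 114 (VE) and 54.2 (WT) CPM in monocytes (-5.07 ± 0.76, adjusted p = 5.59e-10). The phospholipid transfer protein gene Pltp had 13 (VE) and 1.33 (WT) CPM in microglia, against 117 (VE) and 21.3 (WT) CPM in monocytes (-3.58 ± 0.68, adjusted p = 1.82e-06). Apoe, apolipoprotein E, chosen after its values were seen, had 3139 (VE) and 404 (WT) CPM in microglia, against 3914 (VE) and 1131 (WT) CPM in monocytes and did not pass the test (-0.90 ± 0.69, adjusted p = 0.34); it was higher in the VE than in the WT library of each cell type. Abca9 (adjusted p = 0.3) and Fabp5 (adjusted p = 0.056) were not called with all 6 libraries.

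Innate sensing receptors are described as Fc and Siglec receptors, then as Toll-like receptors and their adaptors. Of 15 Fc and Siglec receptor genes tested of 16 listed, 6 were higher and 4 lower in microglia, or 8 and 2 under TPM, with a median log2 fold change of 1.64. Cd33, a sialic acid-binding lectin, had 481 (VE) and 523 (WT) CPM in microglia, against 101 (VE) and 24.6 (WT) CPM in monocytes (3.33 ± 0.75, adjusted p = 7.76e-05). Pilrb1, an activating paired receptor, had 1.1 (VE) and 0.114 (WT) CPM in microglia, against 124 (VE) and 48.6 (WT) CPM in monocytes (-7.62 ± 0.84, adjusted p = 9.28e-18). Fcer1g, the common Fc receptor gamma chain, had 2168 (VE) and 783 (WT) CPM in microglia, against 12194 (VE) and 3639 (WT) CPM in monocytes (-2.35 ± 0.71, adjusted p = 0.0046; adjusted p = 0.4 with all 6 libraries). Siglec1, a sialoadhesin of border macrophages, had 2.26 (VE) and 1.27 (WT) CPM in microglia, against 23.9 (VE) and 10.4 (WT) CPM in monocytes (-3.21 ± 0.76, adjusted p = 2.08e-04; adjusted p = 0.21 with all 6 libraries). Of 19 Toll-like receptor genes and adaptors, 1 was higher and 4 were lower in microglia, or 5 and 2 under scaling by library size and under TPM. Over all genes tested the shares were 15.4% higher and 17.2% lower in the reported fit. The median of the Toll-like list was 0.44. In the fit on all 6 libraries it was -0.48 without VE monocytes and -1.07 without WT microglia, where the medians of all genes were -0.03 and -0.48. Tlr3, the receptor for double-stranded RNA, had 21.5 (VE) and 67.3 (WT) CPM in microglia, against 0.702 (VE) and 1.26 (WT) CPM in monocytes (5.34 ± 0.75, adjusted p = 3.17e-11). Tlr8, an endosomal receptor, had 0.0538 (VE) and 0.285 (WT) CPM in microglia, against 12.9 (VE) and 21 (WT) CPM in monocytes (-6.81 ± 0.96, adjusted p = 3.89e-11). Irak3, a negative regulator of Toll-like receptor signalling, had 3.9 (VE) and 3.87 (WT) CPM in microglia, against 26 (VE) and 26.3 (WT) CPM in monocytes (-2.75 ± 0.68, adjusted p = 3.68e-04; adjusted p = 0.32 with all 6 libraries).

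The MHC class II list had a median log2 fold change of 0.03, which became -0.15 with length and GC correction and -0.49 with all 6 libraries. Of 10 members tested of 11 listed, 2 were higher and 3 lower in microglia, or 3 and 1 under scaling by library size and 2 and 0 both under TPM and with all 6 libraries. Over all genes tested the shares were 15.4% higher and 17.2% lower in the reported fit. H2-Oa and H2-Ob, the chains of the peptide-loading modulator H2-O, were the members higher in microglia in both genotypes: H2-Oa had 67.5 (VE) and 35.3 (WT) CPM in microglia, against 4.4 (VE) and 0.343 (WT) CPM in monocytes (5.15 ± 0.76, adjusted p = 2.84e-10). H2-Ob had 71.2 (VE) and 45 (WT) CPM in microglia, against 5.94 (VE) and 4.12 (WT) CPM in monocytes (3.52 ± 0.67, adjusted p = 2.21e-06). Ciita, the transactivator of class II genes, was lower, with 3.77 (VE) and 1.33 (WT) CPM in microglia, against 22.4 (VE) and 34 (WT) CPM in monocytes (-3.61 ± 0.73, adjusted p = 7.71e-06), though not called with all 6 libraries (adjusted p = 0.088).

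Of 22 chemokine and chemokine receptor genes, 8 were higher and 9 lower in microglia, or 7 and 5 under TPM, 6 and 5 of them in both genotypes. Their median log2 fold change was -0.76, or -0.03 under TPM. In the fit on all 6 libraries it was 0.72 without VE monocytes, 0.36 without WT monocytes and -2.32 without WT microglia. The medians of all genes there were -0.03, 0.41 and -0.48. Ccr2, the receptor that draws monocytes out of bone marrow, had 14.9 (VE) and 9.38 (WT) CPM in microglia, against 1847 (VE) and 1309 (WT) CPM in monocytes (-7.04 ± 0.87, adjusted p = 3.69e-14). Cxcr4, a receptor that retains cells in marrow, had 0.996 (VE) and 0.038 (WT) CPM in microglia, against 18.1 (VE) and 32.8 (WT) CPM in monocytes (-6.32 ± 0.90, adjusted p = 5.71e-11). Of the CC chemokines, Ccl3 had 3758 (VE) and 303 (WT) CPM in microglia, against 214 (VE) and 12.4 (WT) CPM in monocytes (4.37 ± 0.77, adjusted p = 2.58e-07). Ccl4 had 5741 (VE) and 328 (WT) CPM in microglia, against 623 (VE) and 21.9 (WT) CPM in monocytes (3.55 ± 0.75, adjusted p = 2.34e-05). Ccl5 had 6.65 (VE) and 1.46 (WT) CPM in microglia, against 268 (VE) and 129 (WT) CPM in monocytes (-5.89 ± 0.79, adjusted p = 4.0e-12). The levels of Ccl3 and Ccl4 in VE microglia were more than 10 times those in WT microglia, and their levels in VE monocytes more than 10 times those in WT monocytes, while the log2 ratio of cell types was 4.14 in the VE pair and 4.61 in the WT pair for Ccl3. Ccl6, a CC chemokine of mouse myeloid cells, had 392 (VE) and 159 (WT) CPM in microglia, against 16849.8 (VE) and 1527 (WT) CPM in monocytes (-4.35 ± 0.80, adjusted p = 8.83e-07). Of these, Cxcr4 (adjusted p = 0.053), Ccl3 (adjusted p = 0.087), Ccl4 (adjusted p = 0.25), Ccl5 (adjusted p = 0.082) and Ccl6 (adjusted p = 0.13) were not called with all 6 libraries.

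Of 22 integrin, selectin and other adhesion genes, 7 were higher and 9 lower in microglia, 4 and 8 of them in both genotypes. The median log2 fold change of -0.14 became 0.38 under scaling by library size and 0.64 under TPM. In the fit on all 6 libraries it was 0.90 without VE microglia and 0.50 without VE monocytes, where the medians of all genes were 0.29 and -0.03. Itgal, the alpha subunit of LFA-1 with which leukocytes bind ICAM molecules, had 1.1 (VE) and 0.798 (WT) CPM in microglia, against 188 (VE) and 230.3 (WT) CPM in monocytes (-7.79 ± 0.86, adjusted p = 1.91e-17). Cd44, the hyaluronan receptor, had 3.9 (VE) and 1.03 (WT) CPM in microglia, against 749 (VE) and 499.7 (WT) CPM in monocytes (-8.24 ± 0.91, adjusted p = 1.16e-17). Emilin2, an extracellular matrix glycoprotein, had 0.861 (VE) and 0.798 (WT) CPM in microglia, against 662 (VE) and 559 (WT) CPM in monocytes (-9.51 ± 0.95, adjusted p = 4.06e-21). Itga6, a laminin receptor subunit, had 91.9 (VE) and 232 (WT) CPM in microglia, against 22.2 (VE) and 1.98 (WT) CPM in monocytes (4.41 ± 0.85, adjusted p = 2.73e-06). Itga9 had 19.1 (VE) and 92 (WT) CPM in microglia, against 2.39 (VE) and 0.0762 (WT) CPM in monocytes (5.79 ± 0.88, adjusted p = 1.12e-09), with larger ratios in the WT than in the VE pair. Itga6 (adjusted p = 0.054) and Itga9 (adjusted p = 0.055) were not called with all 6 libraries. Itgb2, the shared beta subunit of leukocyte integrins, chosen after its values were seen, had 469 (VE) and 406 (WT) CPM in microglia, against 666 (VE) and 459 (WT) CPM in monocytes and did not pass the test (-0.34 ± 0.66, adjusted p = 0.75).

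All 14 classical monocyte markers were lower in microglia in both genotypes, with a median log2 fold change of -10.07. Lyz2, lysozyme, had 2056 (VE) and 319 (WT) CPM in microglia, against 26579 (VE) and 33164 (WT) CPM in monocytes (-5.20 ± 0.85, adjusted p = 1.83e-08) and was the member not called with all 6 libraries (adjusted p = 0.25). F13a1, a coagulation factor subunit, had 0.996 (VE) and 1.01 (WT) CPM in microglia, against 1030.0 (VE) and 1238 (WT) CPM in monocytes (-10.14 ± 0.99, adjusted p = 2.84e-22). Vcan, the proteoglycan versican, had 0.162 (VE) and 0 (WT) CPM in microglia, against 123 (VE) and 17.5 (WT) CPM in monocytes. Ly6c1 had 0.0269 (VE) and 0.038 (WT) CPM in microglia, against 28.9 (VE) and 19.8 (WT) CPM in monocytes. Gpr141, an orphan receptor, had 0.162 (VE) and 0.038 (WT) CPM in microglia, against 58.9 (VE) and 157 (WT) CPM in monocytes. Ms4a4c had 22.8 (VE) and 2.2 (WT) CPM in microglia, against 627 (VE) and 453 (WT) CPM in monocytes. Sirpb1c, a signal-regulatory protein, had 10.1 (VE) and 0.171 (WT) CPM in microglia, against 384 (VE) and 256 (WT) CPM in monocytes; both were more than 10 times higher in VE than in WT microglia. Of 15 patrolling monocyte markers, 12 were lower in microglia, 11 of them in both genotypes, with a median of -5.01. Ace, the angiotensin-converting enzyme, had 0.188 (VE) and 0.038 (WT) CPM in microglia, against 57.2 (VE) and 161 (WT) CPM in monocytes (-9.84 ± 0.96, adjusted p = 3.01e-22). Ear2, an eosinophil-type ribonuclease, had 1.02 (VE) and 0.285 (WT) CPM in microglia, against 178 (VE) and 110.4 (WT) CPM in monocytes (-7.99 ± 0.86, adjusted p = 2.45e-18). Spn, the sialoglycoprotein CD43, had 0.7 (VE) and 0.418 (WT) CPM in microglia, against 71.8 (VE) and 140.3 (WT) CPM in monocytes (-7.52 ± 0.84, adjusted p = 3.35e-17). Reads of near-identical copies, such as Ly6c1 and Ly6c2, the Ifitm genes, Ear2 and the globin genes, may have been split between members, so single values of these genes are uncertain.

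The S100 and annexin list, calcium-binding proteins that are abundant in recruited myeloid cells, was among the most shifted. Of 16 members tested of 17 listed, 12 were lower and 1 higher in microglia, 11 and 1 of them in both genotypes, with a median log2 fold change of -6.27. S100a6 had 4.9 (VE) and 1.05 (WT) CPM in microglia, against 10553 (VE) and 5857 (WT) CPM in monocytes (-11.75 ± 1.06, adjusted p = 2.84e-25). S100a4 had 2.48 (VE) and 0.608 (WT) CPM in microglia, against 2925 (VE) and 2204 (WT) CPM in monocytes (-10.99 ± 1.04, adjusted p = 1.47e-23). S100a11 had 7.37 (VE) and 1.06 (WT) CPM in microglia, against 4304 (VE) and 1104 (WT) CPM in monocytes (-9.60 ± 0.98, adjusted p = 2.17e-20). S100a9, a subunit of calprotectin that neutrophils hold in bulk, had 1.35 (VE) and 1.37 (WT) CPM in microglia, against 20707 (VE) and 796 (WT) CPM in monocytes (-11.53 ± 1.10, adjusted p = 5.29e-23), and its partner S100a8 had 1.88 (VE) and 1.29 (WT) CPM in microglia, against 19955 (VE) and 535 (WT) CPM in monocytes (-11.03 ± 1.09, adjusted p = 7.57e-22). VE monocytes held more than 20 times the level of WT monocytes for both calprotectin genes, and the log2 ratio of S100a9 was -13.86 in the VE pair and -9.13 in the WT pair. Anxa3, an annexin, was the exception, with 1023 (VE) and 409.6 (WT) CPM in microglia, against 154 (VE) and 47.4 (WT) CPM in monocytes (2.92 ± 0.71, adjusted p = 3.0e-04; adjusted p = 0.066 with all 6 libraries).

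Type I interferon response genes were lower in microglia or did not pass the test. Of 28 members, 19 were lower, 13 of them in both genotypes, with a median log2 fold change of -2.74; 8 were called lower with all 6 libraries. Ifitm3, an antiviral membrane protein, had 109.5 (VE) and 14.9 (WT) CPM in microglia, against 27794 (VE) and 10198 (WT) CPM in monocytes (-8.70 ± 0.95, adjusted p = 4.79e-18). Ifitm2 had 14.8 (VE) and 1.86 (WT) CPM in microglia, against 3756 (VE) and 824 (WT) CPM in monocytes (-8.38 ± 0.93, adjusted p = 2.05e-17). Oas3, an oligoadenylate synthetase that senses double-stranded RNA, had 0.162 (VE) and 0.152 (WT) CPM in microglia, against 56.3 (VE) and 60.6 (WT) CPM in monocytes (-8.52 ± 0.87, adjusted p = 2.65e-20). The pairs differed in how many members passed the size and level rule downward: 13 in the VE pair alone and 21 in the WT pair alone. Ifit3, chosen after its values were seen, was such a case, with 46.9 (VE) and 8.98 (WT) CPM in microglia, against 14.4 (VE) and 62 (WT) CPM in monocytes and a log2 ratio of 1.70 in the VE pair and -2.78 in the WT pair.

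The phagocyte oxidase and oxidant list had 1 member higher and 5 lower of 14 tested of 15 listed, with a median log2 fold change of -0.99. Cybb, the catalytic subunit of the NADPH oxidase, had 21.7 (VE) and 7.62 (WT) CPM in microglia, against 1105 (VE) and 1752 (WT) CPM in monocytes (-6.76 ± 0.88, adjusted p = 5.67e-13). Ncf1, a cytosolic subunit chosen after its values were seen, had 433 (VE) and 355 (WT) CPM in microglia, against 419 (VE) and 298 (WT) CPM in monocytes and did not pass the test (0.15 ± 0.66, adjusted p = 0.89). Hvcn1, the proton channel that sustains the oxidase, was higher, with 90.2 (VE) and 114 (WT) CPM in microglia, against 7.13 (VE) and 5.22 (WT) CPM in monocytes (4.05 ± 0.70, adjusted p = 1.56e-07). Sod1, superoxide dismutase, had 38.1 (VE) and 68.2 (WT) CPM in microglia, against 428 (VE) and 667 (WT) CPM in monocytes (-3.39 ± 0.72, adjusted p = 2.68e-05). Gpx1, glutathione peroxidase, had 1006 (VE) and 197 (WT) CPM in microglia, against 12155 (VE) and 1904 (WT) CPM in monocytes (-3.43 ± 0.74, adjusted p = 3.91e-05; adjusted p = 0.21 with all 6 libraries).

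Immediate early genes are induced by growth signals without new protein synthesis. Of the 32 lists this one had the widest gap between the pairs in members passing upward: 12 members passed the size and level rule upward in the VE pair alone, and 3 in the WT pair alone. Of 20 members, 7 were higher and 3 lower in microglia by the test, or 4 and 3 with length and GC correction, 3 and 2 of them in both genotypes, and the median log2 fold change was 1.33. Egr1, a zinc-finger factor, had 2200.3 (VE) and 436 (WT) CPM in microglia, against 45.4 (VE) and 6.59 (WT) CPM in monocytes (5.82 ± 0.82, adjusted p = 4.87e-11). Jun, a subunit of AP-1, had 4761 (VE) and 1543 (WT) CPM in microglia, against 71.8 (VE) and 87.5 (WT) CPM in monocytes (5.10 ± 0.82, adjusted p = 1.19e-08). Ier3, an early response gene, had 749 (VE) and 47.3 (WT) CPM in microglia, against 144 (VE) and 3.81 (WT) CPM in monocytes (3.0 ± 0.72, adjusted p = 2.35e-04; adjusted p = 0.22 with all 6 libraries). Fosl2, another AP-1 subunit, was lower in microglia in both genotypes, with 6.78 (VE) and 3.84 (WT) CPM in microglia, against 112 (VE) and 134 (WT) CPM in monocytes (-4.58 ± 0.73, adjusted p = 7.51e-09). Fos and Atf3, chosen after their values were seen, did not pass the test. Fos had 10932 (VE) and 491 (WT) CPM in microglia, against 684 (VE) and 1905 (WT) CPM in monocytes, with a log2 ratio of 4.0 in the VE pair and -1.95 in the WT pair. Atf3 had 4748 (VE) and 70.6 (WT) CPM in microglia, against 58.8 (VE) and 221 (WT) CPM in monocytes, with a log2 ratio of 6.33 in the VE pair and -1.65 in the WT pair. The sum over the list was 44903 (VE) and 6189 (WT) CPM in microglia, against 5314 (VE) and 6855 (WT) CPM in monocytes. Each genotype is 1 library per cell type, so genotype and library cannot be told apart in these differences between the pairs.

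Of the kinases and feedback genes of the RAS, RAF, MEK and ERK pathway, 2 of 18 members tested of 20 listed were higher and 3 lower in microglia, or 4 and 2 under scaling by library size and 3 and 2 under TPM. Over all genes tested the shares were 15.4% and 17.2% in the reported fit, so these counts do not set the list apart. The list's median log2 fold change was 0.14, or -0.07 with length and GC correction. In the fit on all 6 libraries it was -0.52 without WT microglia and -0.20 without WT monocytes, where the medians of all genes were -0.48 and 0.41. Dusp5, a phosphatase of nuclear ERK, was the member lower in both genotypes, with 0.0807 (VE) and 0.133 (WT) CPM in microglia, against 26.6 (VE) and 11.8 (WT) CPM in monocytes (-7.28 ± 0.96, adjusted p = 1.28e-12). The log2 ratio of Braf was -0.89 in the VE pair and 0.89 in the WT pair, so the libraries of the cell types overlapped. Of 20 cell division genes, with a median of -1.34, 2 were higher and 5 lower in microglia, beside 15.4% and 17.2% of all genes tested. Under TPM 2 were higher and 0 lower with a median of -0.15, under scaling by library size 2 were higher and 3 lower, and with all 6 libraries none was called in either direction. Mki67, a marker of cycling cells, had 0.458 (VE) and 0.779 (WT) CPM in microglia, against 22.8 (VE) and 11.1 (WT) CPM in monocytes (-4.70 ± 0.85, adjusted p = 5.23e-07), and was not called with all 6 libraries (adjusted p = 0.097).

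Markers of cells other than microglia and monocytes were summed per library. Neutrophil markers stood at 251 (VE) and 424 (WT) CPM in microglia, against 50389 (VE) and 1781 (WT) CPM in monocytes. Csf3r, a receptor gene chosen after its values were seen, supplied 239 (VE) and 421 (WT) CPM of the microglia sums. Of the 14 markers listed, 4 were at 0 in VE and 2 in WT microglia. The defining genes Ly6g and Elane, also chosen after their values were seen, were at 0 in both microglia libraries. The neutrophil granule gene Ngp had 0.108 (VE) and 0.019 (WT) CPM in microglia, against 1492 (VE) and 76.7 (WT) CPM in monocytes. Erythroid markers stood at 6.89 (VE) and 2.39 (WT) CPM in microglia, against 9281 (VE) and 197 (WT) CPM in monocytes. The globin gene Hbb-bs had 0.404 (VE) and 0.228 (WT) CPM in microglia, against 3384 (VE) and 79 (WT) CPM in monocytes. Hba-a1 had 0.565 (VE) and 0.209 (WT) CPM in microglia, against 4021 (VE) and 70.2 (WT) CPM in monocytes. Platelet markers stood at 60.9 (VE) and 36.8 (WT) CPM in microglia, against 1548 (VE) and 25.1 (WT) CPM in monocytes; Pf4, platelet factor 4, which border macrophages also express, had 2.85 (VE) and 0.855 (WT) CPM in microglia, against 1456 (VE) and 11.4 (WT) CPM in monocytes. T and NK cell markers stood at 1.16 (VE) and 0.513 (WT) CPM in microglia, against 294 (VE) and 84.4 (WT) CPM in monocytes. Gzma, a granzyme, had 0 (VE) and 0 (WT) CPM in microglia, against 72.3 (VE) and 40.1 (WT) CPM in monocytes. Nkg7, a granule protein, had 0.377 (VE) and 0.152 (WT) CPM in microglia, against 169 (VE) and 22.3 (WT) CPM in monocytes, and was not called with all 6 libraries (adjusted p = 0.058). Where these genes were called lower in microglia, the monocyte libraries thus held the markers of neutrophils, red cells and cytotoxic lymphocytes, with more in VE than in WT monocytes; their part in the other differences was not tested.

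Markers of the other brain cells and of further blood and vessel cells were summed in the same way. Neuron markers summed to 24.8 (VE) and 4.65 (WT) CPM in microglia, against 2.92 (VE) and 1.03 (WT) CPM in monocytes. Of 6 neuron markers tested, 4 were called higher and 0 lower in microglia, and 0 passed the same-way rule. Under TPM and with all 6 libraries 0 were called. In VE microglia 1 of the 10 listed reached 10 CPM, and in WT microglia and both monocyte libraries 0. Astrocyte markers summed to 188 (VE) and 114 (WT) CPM in microglia, against 10.5 (VE) and 3.77 (WT) CPM in monocytes. Oligodendrocyte markers summed to 189 (VE) and 140.0 (WT) CPM in microglia, against 128 (VE) and 302 (WT) CPM in monocytes. Slc1a3 made up most of the astrocyte sum in microglia. Of the 10 oligodendrocyte markers listed, 3 reached 10 CPM in each microglia library and 2 in each monocyte library. Of 5 tested, 3 were called higher and 1 lower in microglia. Mag, a myelin protein, was higher in microglia in both genotypes, with 45.4 (VE) and 28.9 (WT) CPM in microglia, against 2.13 (VE) and 0.419 (WT) CPM in monocytes (5.17 ± 0.75, adjusted p = 2.00e-10). The myelin gene Mog, chosen after its values were seen, had 0.646 (VE) and 0.133 (WT) CPM in microglia, against 0 (VE) and 0 (WT) CPM in monocytes. Endothelial and mural markers summed to 9.37 (VE) and 28.7 (WT) CPM in microglia, against 52.4 (VE) and 87.4 (WT) CPM in monocytes. Of the 10 listed, 1 reached 10 CPM in WT microglia, 0 in VE microglia and 1 in each monocyte library. In the WT pair alone 1 member passed the size and level rule upward, and 0 in the VE pair alone. By the test 0 of 6 were called higher and 2 lower in microglia. Cldn5, Tek and Slco1a4, chosen after their values were seen, were at 0 in all 4 libraries. Flt1, a VEGF receptor, had 0.215 (VE) and 0.551 (WT) CPM in microglia, against 40.5 (VE) and 76.2 (WT) CPM in monocytes (-7.30 ± 0.82, adjusted p = 3.82e-17). Border macrophage markers summed to 219 (VE) and 387 (WT) CPM in microglia, against 3106 (VE) and 1500.2 (WT) CPM in monocytes. That list holds F13a1, also a classical monocyte marker, and Pf4, also a platelet marker. F13a1 supplied 1030.0 (VE) and 1238 (WT) CPM of the monocyte sums, and Pf4 1456 (VE) and 11.4 (WT) CPM. Of its 11 members tested, 1 was called higher and 8 lower in microglia. Dendritic cell markers summed to 48.9 (VE) and 28.5 (WT) CPM in microglia, against 129 (VE) and 263 (WT) CPM in monocytes. B cell markers summed to 959 (VE) and 599 (WT) CPM in microglia, against 214 (VE) and 274 (WT) CPM in monocytes. Of the 10 B cell markers listed, 3 were at 0 in VE and 4 in WT microglia. Of 7 tested, 3 were called higher and 2 lower in microglia. Of the dendritic cell genes, Flt3, a cytokine receptor, had 4.25 (VE) and 1.73 (WT) CPM in microglia, against 33.8 (VE) and 63.3 (WT) CPM in monocytes. Cd209a, a lectin, had 5.73 (VE) and 0.532 (WT) CPM in microglia, against 29.6 (VE) and 94.2 (WT) CPM in monocytes; both were lower in microglia in both genotypes.

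**Figure D5:**
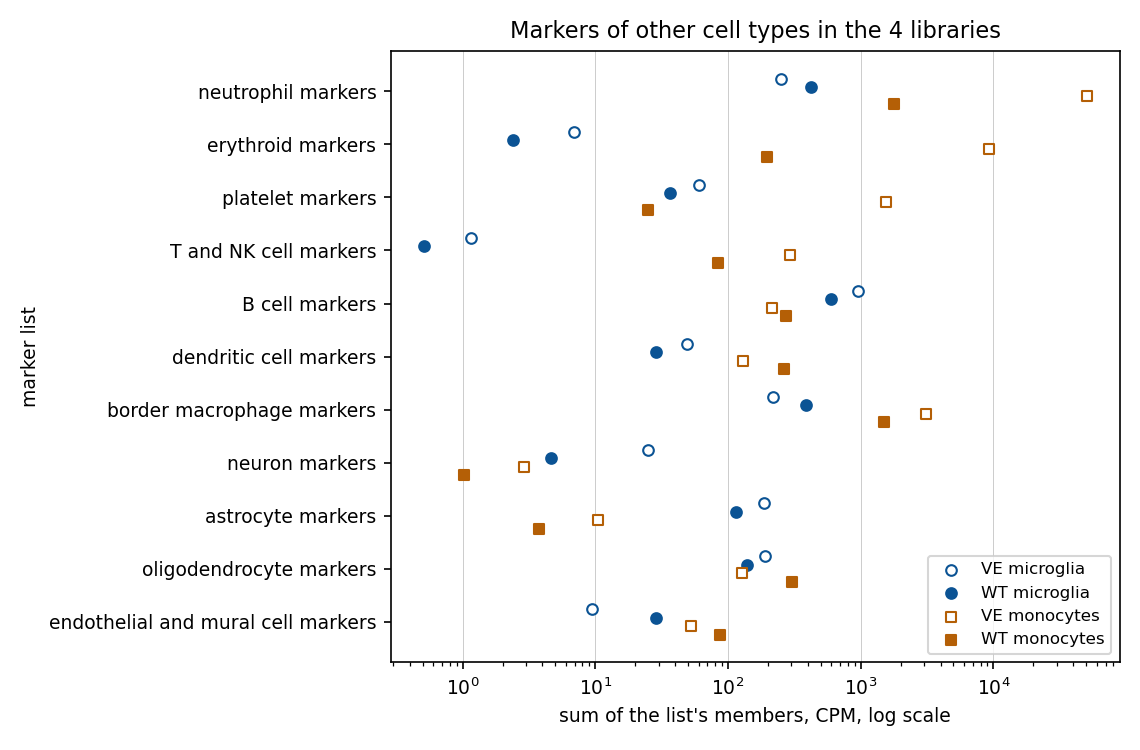
Sum of CPM over the members of 11 marker lists (y axis) in each of the 4 libraries (x axis, log scale); circles are microglia, squares are monocytes, open symbols are VE and filled symbols WT. The neutrophil sum is 50389 CPM in VE monocytes, and the neuron sum stays at 24.8 CPM or less in all 4 libraries.

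Genes of the translation machinery were a large group on the monocyte side; these sets were chosen after their values were seen. Of 83 ribosomal protein genes tested of 84, 68 were lower in microglia, 53 of them in both genotypes, with a median log2 fold change of -2.50. They held 1.97% of the counts in VE and 1.69% in WT microglia, against 8.94% in VE and 9.31% in WT monocytes. The fit on all 6 libraries called 4 of them. The median was -1.99 under scaling by library size, -1.65 under TPM and -1.74 with length and GC correction. Of 28 mitochondrial genes tested, 17 were lower in microglia, 7 of them in both genotypes, with a median of -3.30, which became -1.13 with length and GC correction. Processed pseudogenes, whose reads can come from their parent genes, numbered 1224 among the genes tested, and 483 were lower and 18 higher in microglia, with a median of -2.38; with length and GC correction 146 were lower and 41 higher. They made up 157 of the 1065 genes lower and 1 of the 640 genes higher in both genotypes, while 826 of the genes lower in both genotypes were protein-coding. The median transcript length was 2844 bases for the genes higher in microglia, 1489 for those lower and 2607 for all genes tested.

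The size of a difference often varied between the genotypes even where its direction did not. Of the 1705 same-way genes, 1019 (59.8%) had ratios within 2-fold of each other in the VE and the WT pair, and 269 had ratios more than 4-fold apart. Among these, 106 of the 125 genes higher in microglia and 109 of the 144 genes lower in microglia had the larger ratio in the WT pair. Mertk, described above with the scavenger receptors, was such a gene, with a log2 ratio of 3.38 in the VE pair and 9.60 in the WT pair. Lyz2 was one on the lower side, with a log2 ratio of -3.69 in the VE pair and -6.70 in the WT pair, since VE microglia held 2056 CPM and WT microglia 319 CPM. With 1 library per cell type and genotype, whether the difference between the cell types itself differed between the genotypes could not be tested in these 4 libraries. Across the genes tested the log2 ratios of the VE and WT pairs had a Pearson r of 0.81 and a Spearman rho of 0.76, and 76.6% had the same sign; this describes genes of 4 libraries, and genes are not independent replicates.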

How the data were processed

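RNA of sorted cells was sequenced in 6 libraries, of which 4 enter the comparison. Per the file headers, the authors deposited raw read counts per gene and TPM of these libraries. The tools STAR 2.5.2b, Subread 1.5.2, Trimmomatic 0.37 and bcl2fastq 2.20 and the build mm10 are listed in the submitters' processing notes. Not given in the sources used here are their roles, the annotation and any use of strand, so reads of overlapping or antisense genes cannot be told apart. Of 49315 lines in the deposited count table, 176 without a name and 26 with a date for a symbol were left out (0.0677% to 0.245% of a library's counts), and 94 repeated symbols were summed, leaving 49016.

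Counts were tested with edgeR 4.0.16 (R 4.3.3): TMM factors, filterByExpr by cell type, a genotype block, the quasi-likelihood test and Benjamini-Hochberg adjustment over 15964 genes at 0.05. TMM factors were 0.957 in VE and 1.488 in WT microglia, against 0.689 in VE and 1.019 in WT monocytes. The prior degrees of freedom were infinite. The SE of a fold change was derived from the test, as the absolute log2 fold change divided by the square root of its F statistic. Ratios within a genotype used a prior count of 2. Folds of single genes carry exact conditional 95% intervals of their counts; a fold against 0 counts uses a floor of 3 counts per library. Reads were amplified by PCR and carry no molecular identifiers, so intervals and floors cover counting error only. Coordinates and transcript lengths came from GENCODE M21, promoters from RefSeq. The test was checked on simulated counts.

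Alternatives were relative log expression factors, library size alone, DESeq2 1.42.0, no filter, a mean of at least 10 CPM, all 6 libraries, no genotype block, limma 3.58.1 on log2(TPM + 1) of the deposited TPM, a length and GC correction, other limits of the same-way rule and leaving out each library; each pair alone was added after seeing the data. Named genes were the 15 per direction with the largest smaller ratio (without predicted genes, pseudogenes, ribosomal, mitochondrial and receptor segment genes), up to 4 per list and direction past the same-way rule, all microglia and classical monocyte markers, Braf and up to 5 genes per pattern going opposite ways; any other gene is marked as picked after its values were seen. The members, lists and rules were chosen with earlier results of these data known. A few genes of the lists and leading genes are counted but not reported here by name.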

Additional observations from a re-analysis of the deposited data

Results flagged for a closer look

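The genes Sdc4, Tgm2 and Slc44a1 went opposite ways in the 2 genotypes, by at least 4-fold in each; with 1 library per cell type and genotype the difference was not tested. Sdc4, the proteoglycan syndecan-4, had a log2 ratio of microglia to monocytes of -2.75 in the VE pair and 4.49 in the WT pair, with 25.7 (VE) and 23.3 (WT) CPM in microglia, against 173 (VE) and 0.991 (WT) CPM in monocytes. Its level was alike in both microglia libraries, and the monocyte libraries differed. Tgm2, transglutaminase 2, had a log2 ratio of -2.29 in the VE pair and 3.04 in the WT pair, with 21.1 (VE) and 81.7 (WT) CPM in microglia, against 103 (VE) and 9.87 (WT) CPM in monocytes. Slc44a1, a choline transporter, had a log2 ratio of -2.47 in the VE pair and 2.03 in the WT pair, with 7.75 (VE) and 35.7 (WT) CPM in microglia, against 43.2 (VE) and 8.69 (WT) CPM in monocytes. For Tgm2 and Slc44a1 microglia were lower and monocytes higher in the VE library than in the WT library.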

How the results depend on the processing

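The fit on all 6 libraries called 300 genes higher and 549 lower, with 287 and 501 of them past the same-way rule. In that fit, leaving out a library gave 103 to 319 genes higher and 262 to 445 lower: 319 and 445 without VE microglia, 155 and 308 without WT microglia, 120 and 262 without VE monocytes, and 103 and 381 without WT monocytes; the lone library left in a cell type is then assumed to vary like the others, and the same-way rule could not be applied. Scaling by library size alone called 3778 higher, 1003 of them past the same-way rule; TPM called 1402 lower, 611 past the same-way rule; and a mean of at least 10 CPM, which leaves fewer genes, called 1365 higher and 1467 lower. A log2 ratio of 1 in place of 2 gave 1224 genes higher in both genotypes, and a level of 50 CPM gave 274 higher and 587 lower. The VE pair alone gave 1358 higher and 1662 lower, and the WT pair alone 1100 higher. The other counts, under DESeq2, relative log expression factors, no filter, no genotype block, the length and GC correction and a prior count of 5, stayed within 1.5 times those reported. Beside the genotype block, no paired analysis was possible because the labels give no replicate numbers. Of the 139 named genes, the fit on all 6 libraries kept direction and call for 108, lost the call for 29 and reversed 2; TPM kept 134 and lost 4, and no genotype block kept 129 and lost 8; leaving out a library lost the call for 32 to 65. Reversals were few, and their cause was not tested. Slc44a1, at -0.22 and not called in the reported fit, had a log2 fold change of 0.55 under TPM, 0.52 with all 6 libraries, 0.29 under library size alone, 2.23 without VE microglia and 1.25 without VE monocytes, against -2.57 without WT microglia. Sdc4, at 0.77 and not called, had -0.73 with all 6 libraries, -1.83 without the genotype block, -1.86 without WT microglia and -2.70 without WT monocytes, against 4.36 without VE monocytes. Tgm2, at 0.37 and not called, had -0.14 without the genotype block, -2.0 without WT microglia and -0.91 without WT monocytes, against 2.81 without VE microglia. Braf, which was not called, had -0.03 under DESeq2 and under relative log expression factors, -0.01 with the length and GC correction, -0.94 without WT microglia and -0.30 without WT monocytes, against 1.04 without VE microglia. Abca9, at 2.52, had -0.05 without WT microglia, against 5.03 without WT monocytes. Depth limits genes with few counts in the lower cell type, whose ratios have wide counting intervals.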
